A study of Gallus gallus with 30 samples.

Results

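The genes described here are 5 chicken genes for cytosolic ribosomal proteins, RPS3A, RPS10, RPLP1, RPL23 and RPL6. They are the rows of the FPKM table whose identifiers the study pairs with a symbol that starts with RPL or RPS, 5 of 23910 rows in all. FPKM counts the fragments of a gene relative to the length of its transcript and to all mapped fragments of the library. The list that pairs identifiers with symbols holds only genes that stood among the 100 highest by mean FPKM at every stage, so a high level was a condition of entering it and is given here as a description. Other ribosomal protein genes are not paired with an identifier and were not analysed here.

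Granulosa cell layers of Luhua hens, all at 31 weeks of age and with no treatment, were sampled at 10 stages with 3 libraries each. The postovulatory follicle (POF) is what stays in the ovary after ovulation. The preovulatory follicles F1, F2, F3, F4 and F5 form the hierarchy, in which F1 is the next to ovulate, and the prehierarchical follicles are SWF, LWF, SYF and LYF. There were thus 3 POF, 15 preovulatory and 12 prehierarchical libraries. The sources do not say which libraries came from the same hen or whether follicles were pooled, so the p-values measure the spread between these libraries. In whole cell layers fewer cells of a type and less RNA per cell cannot be told apart.

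Each ribosome joins a small subunit, which reads the mRNA, to a large subunit, which links the amino acids. RPS3A and RPS10 are proteins of the small subunit. RPL23 and RPL6 belong to the large subunit, and RPLP1 is an acidic protein of the stalk of the large subunit, where elongation factors dock. The cell needs most ribosomal proteins in equal numbers, and in vertebrates their mRNAs share a pyrimidine tract at the 5′ end through which their translation is controlled together. Granulosa cells surround the oocyte, make progesterone in the largest follicles, and in birds differentiate around the selection of a follicle into the hierarchy.

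The identifiers are ENSGALG00000010077 for RPS3A on chromosome 4, ENSGALG00000002813 for RPS10 on chromosome 26, ENSGALG00000030878 for RPLP1 on chromosome 2, ENSGALG00000001634 for RPL23 on chromosome 27 and ENSGALG00000004818 for RPL6 on chromosome 15. The 5 genes thus lie on 5 chromosomes. All 5 passed the filter on low values, as did 15197 genes in all.

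Some facts of the libraries bear on every value below. For 6 libraries the title and the description exchange LWF and SYF, and the names used here follow the description and the column. The summed FPKM ran from 471000 to 642200 per library, and the relative depth from 1 to 1.54. The rows of the mitochondrial genome held between 14.1% of the summed FPKM (POF replicate 1) and 49.5% (LYF replicate 1). A group of 6 libraries had a higher share of high-quality bases, namely replicate 3 of POF, F2, F3 and F4 and replicates 2 and 3 of F1, and is called the sequencing group here. The name rests on the quality of the bases alone, and the labels used here name no run or batch. These 6 libraries also had the highest relative depths, from 1.25 to 1.54. Of 55 markers of granulosa and other ovarian cell types only ZP3, an egg coat gene that avian granulosa cells express, is paired with an identifier, and it ran from 341.1 FPKM in POF replicate 1 to 90650 FPKM in F2 replicate 3. Markers of other cell types were not analysed here.

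The 5 genes lay close to each other in level. Over the 30 libraries the median was 721.7 FPKM for RPS3A, 771.6 for RPS10, 770.5 for RPLP1, 619.3 for RPL23 and 597.3 for RPL6. Ranked by stage mean among all genes, RPS3A stood between place 30 (POF) and place 72 (F1), RPS10 between 30 (F3) and 83 (LWF), RPLP1 between 34 (F3) and 68 (LWF), RPL23 between 42 (F3) and 86 (LWF) and RPL6 between 37 (F3) and 85 (SYF). The limit that the study's choice set, place 100, lay at 323.3 FPKM with the next gene at 323.0 in LWF, and at 591.9 FPKM with the next gene at 587.7 in F3.

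**Figure D1:**
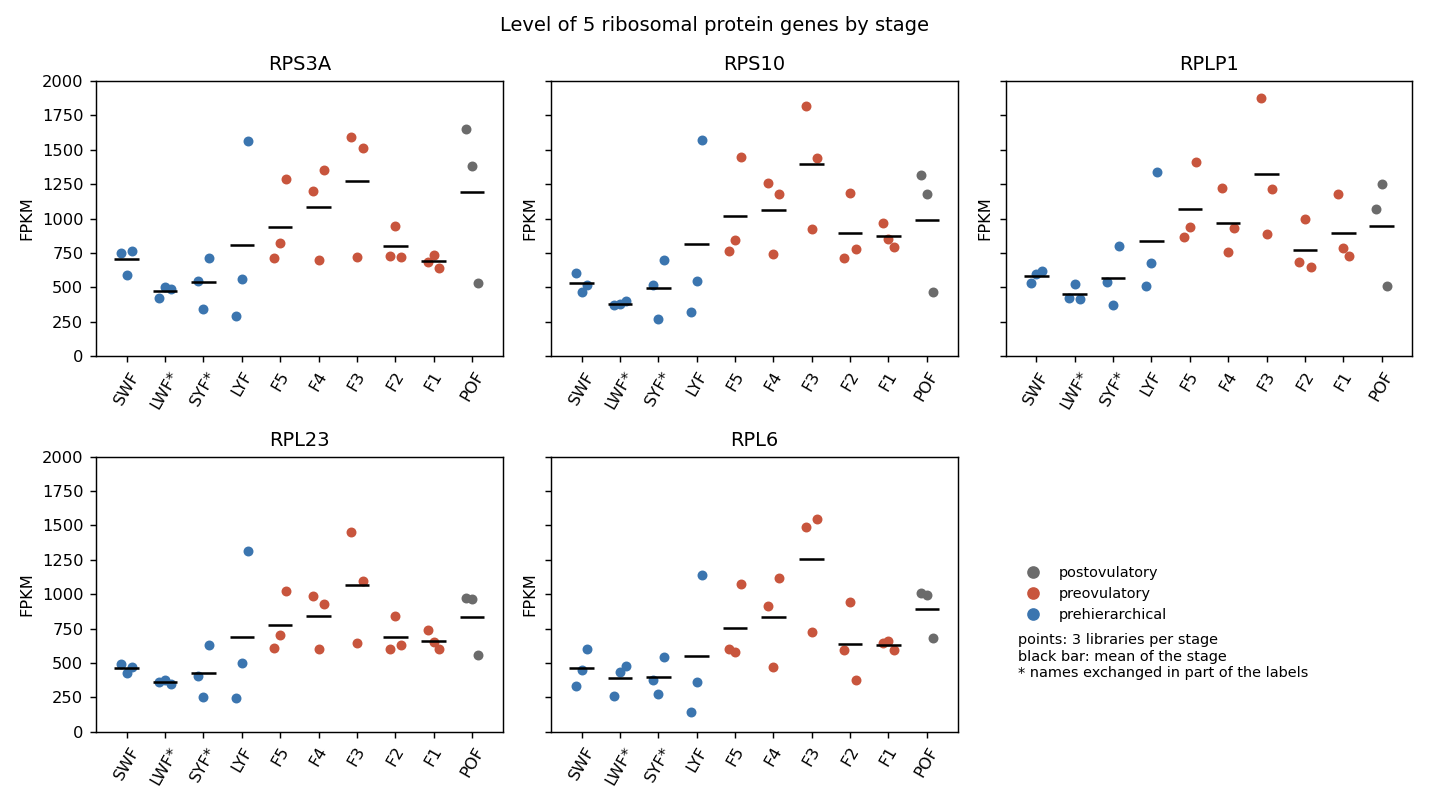
FPKM of the 5 genes (vertical axis) at the 10 stages (horizontal axis), with 1 point per library and a black bar at the mean of the 3 libraries. The means of all 5 genes were lowest in LWF and highest in F3, and 1 prehierarchical library, LYF replicate 3, lay at the level of the high preovulatory libraries.

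The course over the stages was alike for all 5 genes. The highest stage mean was in F3 and the lowest in LWF for each of them, and the ratio of F3 to LWF was 2.71 for RPS3A, 3.66 for RPS10, 2.92 for RPLP1, 2.95 for RPL23 and 3.21 for RPL6. RPS10 had 1816, 926.1 and 1438 FPKM in the libraries of F3, against 370.6, 375.4 and 397.0 FPKM in those of LWF, which are SYF by their titles. The libraries of these stages did not overlap for any of the 5 genes. For how many of all genes F3 and LWF did not overlap was not counted. Because the stages were picked as the highest and lowest means of the same values, this lack of overlap is a description.

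The full series of RPS10, a protein at the head of the small subunit, shows how the libraries behaved. In prehierarchical follicles RPS10 stood at 602, 468.4 and 514.6 FPKM in SWF, at 519.5, 269.9 and 696.2 FPKM in SYF and at 320.4, 547 and 1570 FPKM in LYF. In the early preovulatory follicles F5 and F4 it stood at 765.6, 847.4 and 1448 FPKM and at 1258, 742.2 and 1180 FPKM. In the late ones it stood at 714, 1184 and 777.7 FPKM (F2) and at 971.2, 852.5 and 791.3 FPKM (F1). SWF, LWF and F1 held libraries of like level, while in LYF the highest library exceeded the lowest several times over. POF had 1317, 1175 and 467.6 FPKM, with replicate 3 far below the others.

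RPS3A differed most from this course at its ends. It had 753, 590.5 and 765.1 FPKM in SWF, 686.4, 734.2 and 642.8 FPKM in F1 and 1651, 1385 and 533.5 FPKM in POF. Its mean in POF, 1190 FPKM, was its second highest after F3 with 1275 FPKM. POF held the same place for RPL6, with 893.1 FPKM after 1253 FPKM in F3. In F1 the mean of RPS3A, 687.8 FPKM, lay below that in SWF, 702.9 FPKM. RPL6 had the widest range of the 5 genes. Its lowest library was LYF replicate 1 with 143.3 FPKM and its highest F3 replicate 3 with 1547 FPKM, 10.8 times as much.

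Stages next to each other in the order of their means mostly overlapped. Ordering by the same values favours such overlap, and this count was not made for all genes, so it is a description. With the stages of each gene ordered by mean, the libraries of neighbours overlapped in 9 of 9 cases for RPS3A, RPS10 and RPL6 and in 8 of 9 for RPLP1 and RPL23. The exceptions were RPLP1 between F2 (774.7 FPKM) and SWF (582.6 FPKM) and RPL23 between F1 (662.7 FPKM) and SWF (462.7 FPKM). Of all 45 pairs of stages, the libraries did not overlap in 9 for RPS3A, 17 for RPS10, 13 for RPLP1, 14 for RPL23 and 12 for RPL6. The median over all 15197 genes was 16 pairs, and over the 557 genes with a mean of 100 FPKM or more it was 18 pairs.

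The question whether a gene differs among the 10 stages at all was put to limma, a linear model fitted across all genes, on log2(FPKM + 1). At an adjusted p under 0.05 it called 75.6% of all genes tested, and 3 of the 5 ribosomal protein genes. These were RPS10 with an adjusted p of 0.0215, RPLP1 with 0.0309 and RPL23 with 0.0433. RPL6 had 0.0593 and RPS3A 0.133. The number of these genes called was 0 without all libraries numbered 1, 0 without those numbered 2 and 5 without those numbered 3. The count of all genes called also fell without those numbered 2, as given in the last section. The change in the number is therefore not read as a result about the 5 genes.

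The spread between libraries of the same stage was wide. The standard deviation within stages, on the log2 scale, was 0.59 for RPS3A, 0.58 for RPS10, 0.46 for RPLP1, 0.53 for RPL23 and 0.67 for RPL6. It was 0.38 for the median of all genes and 0.46 for the median of the 557 genes with a mean of 100 FPKM or more. Differences between stage means held 44.3% of the variance of RPS3A, 56.9% for RPS10, 56.8% for RPLP1, 52.8% for RPL23 and 49.2% for RPL6. For the median gene this share was 66.1%.

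This spread was common to the 5 genes. In 19 of 30 libraries all 5 lay on the same side of their stage mean. LYF held the extremes, where the average deviation was -1.06 in replicate 1 and 1.24 in replicate 3 on the log2 scale. POF replicate 3 deviated by -0.72, F3 replicate 2 by -0.63, SYF replicate 2 by -0.60 and SYF replicate 3 by 0.56. The 5 genes are therefore not 5 independent readings of a stage.

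**Figure D2:**
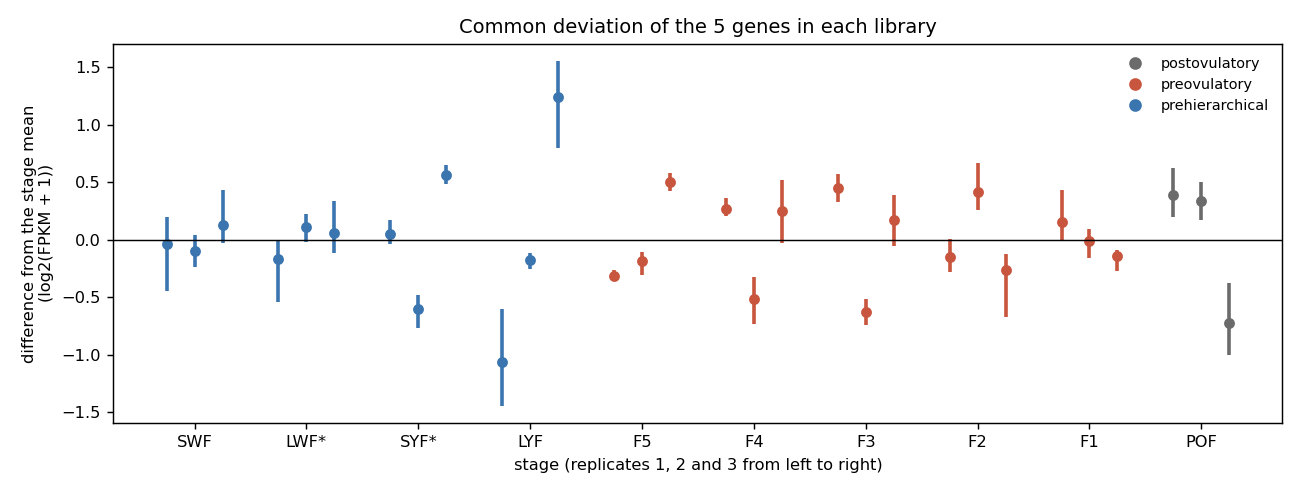
Deviation of the 5 genes from their stage mean on the log2(FPKM + 1) scale (vertical axis) in each of the 30 libraries (horizontal axis, grouped by stage). Points mark the mean of the 5 genes and lines run from the lowest to the highest gene. LYF replicate 3 (1.24) and LYF replicate 1 (-1.06) lay farthest from 0, and in 19 libraries the 5 genes stood on the same side.

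Deviations from the stage mean correlated between the 10 pairs of ribosomal protein genes with Pearson r from 0.786 to 0.971 over the 30 libraries, and from 0.765 to 0.97 after scaling the libraries to their upper quartile. The libraries share their depth and scaling, so these values are a description. EEF1A carries aminoacyl-tRNA to the ribosome, and its mRNA bears the same kind of 5′ tract in mammals. Its deviations correlated with those of the 5 genes at 0.86 to 0.959. EIF4A2, an RNA helicase of translation initiation, was less alike, with r from 0.436 to 0.604. EEF1A and EIF4A2 are the only translation factors of a list of 43 that are paired with an identifier.

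Among 8702 genes with a mean of 5 FPKM or more, RPS10 and RPL23 were each the most alike of the other, with a Pearson r of 0.979 over the 30 libraries. For RPLP1, RPS10 stood at place 3 (r = 0.952). The gene most like RPS3A was ENSGALG00000003197 (r = 0.982), which has no symbol in the sources used here, and RPL23 followed at place 16 with r = 0.951. The gene most like RPLP1 was ENSGALG00000051431 (r = 0.964), also without a symbol. RPL6 had the lowest best match, with r = 0.937, and RPL23 at place 5 with r = 0.914. Between ribosomal protein genes the lowest correlation was that of RPLP1 and RPL6, 0.835.

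All 5 genes were higher in preovulatory than in prehierarchical follicles. RPS10 rose most, by 1.02 ± 0.22 on the log2(FPKM + 1) scale (SE), and RPL6 by 0.93 ± 0.25, RPL23 by 0.83 ± 0.20, RPLP1 by 0.74 ± 0.18 and RPS3A by 0.67 ± 0.23. The adjusted p-values of limma, with Benjamini-Hochberg adjustment over 15197 genes, were 0.000417 for RPS10, 0.00285 for RPL6, 0.00136 for RPL23, 0.0014 for RPLP1 and 0.0141 for RPS3A. A call needed an adjusted p under 0.05 together with a fold over 1.5. All 5 met it, where 33.2% of all genes were called in either direction and 7.77% as higher in preovulatory follicles. EEF1A differed by 0.50 ± 0.22 (adjusted p = 0.0588) and EIF4A2 by 0.05 ± 0.12 (adjusted p = 0.716), and neither was called on the values as deposited.

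The values behind this comparison were as follows. RPS10 ran from 714 FPKM through a median of 926.1 to 1816 FPKM in the 15 preovulatory libraries, and from 269.9 through 491.5 to 1570 FPKM in the 12 prehierarchical libraries. The highest prehierarchical library was LYF replicate 3, and all 15 preovulatory libraries lay above the next highest, SYF replicate 3 with 696.2 FPKM. The classes overlapped through LYF replicate 3 alone.

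RPL6 had a lowest value of 372.9, a median of 660.8 and a highest value of 1547 FPKM in preovulatory libraries, against 143.3, 405.4 and 1143 FPKM in prehierarchical libraries. RPL23 had 599.2, 706 and 1455 FPKM in preovulatory libraries, against 247, 413.7 and 1317 FPKM in prehierarchical libraries. For both genes the classes overlapped in more libraries than for RPS10. Leaving aside LYF replicate 3, 9 of 15 preovulatory libraries exceeded every prehierarchical library for RPL6 and 10 of 15 did for RPL23.

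RPLP1 had a lowest value of 646.5, a median of 930.9 and a highest value of 1873 FPKM in preovulatory libraries, against 372.9, 533.7 and 1337 FPKM in prehierarchical libraries. RPS3A had 642.8, 734.2 and 1590 FPKM in preovulatory libraries, against 293.8, 554.2 and 1567 FPKM in prehierarchical libraries. RPS3A overlapped most, since its SWF libraries reached 765.1 FPKM, above 8 of the 15 preovulatory libraries. Without LYF replicate 3, the 15 preovulatory libraries held 10 above all others for RPLP1 and 7 for RPS3A.

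These differences stood against a downward shift of the whole table. The median over the 11988 genes with a mean above 1 FPKM was -0.32 on the log2 scale, so the median of the 5 genes, 0.83, lay 1.15 above it. With the libraries scaled to their upper quartile the 5 genes had a median of 1.04 against -0.14 for all genes, and 5 were called. With the libraries scaled to the sum without mitochondrial rows the medians were 0.66 and -0.46, and 3 were called, RPS10, RPL23 and RPL6. With quantile normalization they were 0.38 and -0.01, and 0 of the 5 were called. The direction was the same for each of the 5 genes under these scalings, with RPS3A lowest at 0.18 and RPS10 highest at 0.58 after quantile normalization (adjusted p of limma 0.429 and 0.00908). EEF1A was called with upper quartile scaling (0.71, adjusted p of limma 0.0091) and under no other of these scalings. EIF4A2 was called under none, but stood at -0.36 with quantile normalization (adjusted p of limma 0.00583), under the fold. The called genes of the whole table split into 1181 higher and 3871 lower in preovulatory follicles as deposited, 1548 and 2762 with upper quartile scaling, 920 and 5103 without the mitochondrial rows, and 1941 and 2005 with quantile normalization.

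**Figure D3:**
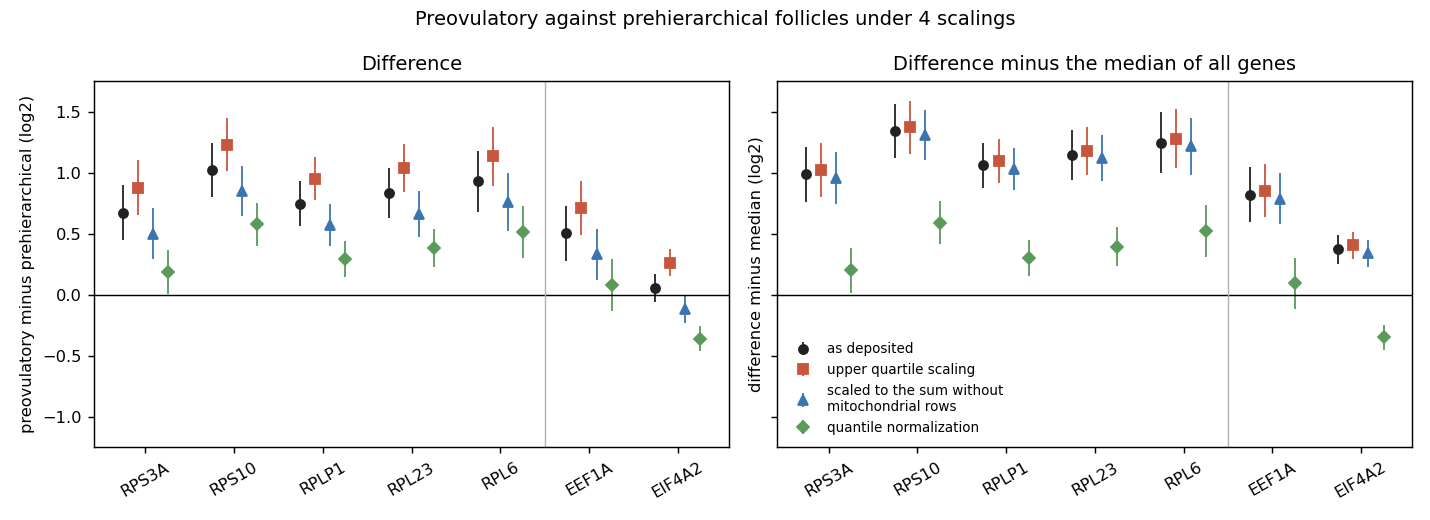
Difference between preovulatory and prehierarchical follicles on the log2 scale (vertical axes) for the 5 ribosomal protein genes and for EEF1A and EIF4A2 (horizontal axes) under 4 scalings, with the median of all genes subtracted on the right. Error bars are the SE of limma over 30 libraries. RPS10 stood highest under each scaling, and quantile normalization gave the lowest values, 0.18 for RPS3A to 0.58 for RPS10.

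Leaving out single libraries changed little in this comparison. Over the 27 libraries left out in turn, RPS10 ranged from 0.89 to 1.18 and RPL6 from 0.75 to 1.12, and 5 genes were called each time except without LYF replicate 1, when RPS3A (0.53, adjusted p of limma 0.0331) fell under the fold and 4 were left. RPS3A was also the gene lost without F3 (0.57, adjusted p 0.0466) and without the 6 libraries of the sequencing group (0.61, adjusted p 0.0548). With LWF and SYF left out, RPS10 (0.78), RPL23 (0.63) and RPL6 (0.86) were called and RPLP1 (0.53, adjusted p 0.0656) and RPS3A (0.45, adjusted p 0.204) were not. Without all libraries numbered 1 only RPS10 and RPL23 were called.

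None of the 5 genes was called in LYF against SWF, F5 against LYF, F1 against F5 or along the line from F5 to F1. F1 against SWF, where RPS10 was called, is given below. Only the straight line from F5 to F1 tested an order, and no line was fitted over the prehierarchical stages. LYF was compared with SWF, the largest with the smallest prehierarchical follicles, and 0 of the 5 genes were called, where 27.7% of all genes were. F5 was compared with LYF, the step of selection into the hierarchy, and 0 of the 5 were called, where 0% of all genes were and 447 had an unadjusted p under 0.05. F1 was compared with F5, the last with the first preovulatory stage, and 0 of the 5 were called against 24.8% of all genes. A straight line in log2(FPKM + 1) from F5 to F1 gave 0 of the 5 against 40.2% of all genes, while EIF4A2 fell by 0.16 ± 0.05 per stage on this scale (adjusted p of limma 0.0217).

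The smallest adjusted p of limma for a ribosomal protein gene in these 4 comparisons and the 2 of POF with preovulatory stages given below was 0.255. No single difference is quoted from them, because 19 of the 30 took the other sign under at least 1 alternative. LYF shows the width of the spread, with 293.8, 559.6 and 1567 FPKM for RPS3A and 247, 503.6 and 1317 FPKM for RPL23. Its libraries reached from the lowest to near the highest levels of the whole series.

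F1 and SWF are the last and the first stage before ovulation. The highest library exceeded the lowest of its stage at most 1.3 times for RPS3A, RPS10 and RPL23, but 1.62 times for RPLP1 in F1 and 1.83 times for RPL6 in SWF. RPS10 had 971.2, 852.5 and 791.3 FPKM in F1, against 602, 468.4 and 514.6 FPKM in SWF. The stages did not overlap, and RPS10 rose by 0.72 ± 0.17 on the log2 scale (SE, adjusted p of limma 0.0122). It was the only 1 of the 5 called, where 52.9% of all genes were called in either direction and 8.4% as higher in F1.

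RPL23 had 736.9, 649.4 and 601.9 FPKM in F1, against 490.7, 424.8 and 472.7 FPKM in SWF. The stages did not overlap either, but the difference of 0.51 ± 0.15 lay under the fold of 1.5 (adjusted p of limma 0.0273). RPLP1 had 1175, 782.9 and 724.1 FPKM in F1, against 531.9, 597.1 and 618.9 FPKM in SWF, a difference of 0.59 ± 0.23 (adjusted p 0.0644). Every F1 library of RPLP1 lay above those of SWF, and without F1 replicate 1 the difference was 0.37.

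RPL6 had 646.1, 660.8 and 594.3 FPKM in F1, against 329.6, 452.3 and 604.4 FPKM in SWF. Its stages overlapped, and the difference was 0.50 ± 0.24 (adjusted p of limma 0.119). It turned on the SWF libraries, with 0.28 (adjusted p 0.249) without SWF replicate 1 and a call at 0.71 (adjusted p 0.0364) without SWF replicate 3. RPS3A, with its values given above, differed by -0.02 ± 0.17 (adjusted p 0.919). The small subunit genes thus stood at the 2 ends of the group, RPS10 with the largest and RPS3A with the smallest difference.

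The scaling weighed on this comparison too. The median over all genes was -0.68 on the log2 scale as deposited and the median of the 5 genes 0.51. With upper quartile scaling 4 of the 5 were called, all but RPS3A (0.49, adjusted p of limma 0.0498), where 6507 of all genes were. With quantile normalization 0 of the 5 were called (RPS10 0.22, adjusted p 0.33), where 5960 of all genes were. RPS3A then stood at -0.55 (adjusted p 0.0431), under the fold. Without the mitochondrial rows 0 were called as well, RPS10 at 0.54 with an adjusted p of 0.0336 and under the fold. The median of the 5 genes then lay 1.15 above that of all genes, against 1.19 as deposited and 0.045 with quantile normalization. With a term for the sequencing group 3 were called, a fit in which F1 rests on replicate 1. Without SWF replicate 2 the call of RPS10 was lost (0.64, adjusted p 0.052), and with the spread taken from all 30 libraries it was lost as well (adjusted p 0.2). The called genes of the whole table split into 1277 higher and 6763 lower in F1 as deposited, and 2983 and 2977 with quantile normalization.

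After ovulation POF replicate 3 lay below replicates 1 and 2 for each of the 5 genes. The mitochondrial rows held 14.12%, 21.95% and 30.58% of the summed FPKM in replicates 1, 2 and 3. RPL6 had 1009, 991.4 and 678.7 FPKM in POF, against 329.6, 452.3 and 604.4 FPKM in SWF, and the stages did not overlap. RPL23 had 972.5, 966.9 and 558.3 FPKM in POF, against 490.7, 424.8 and 472.7 FPKM in SWF, also without overlap. RPLP1 had 1070, 1248 and 511.2 FPKM in POF, and its replicate 3 fell under all 3 libraries of SWF. So did replicate 3 for RPS3A (533.5 FPKM) and, narrowly, for RPS10 (467.6 FPKM, against a lowest of 468.4 FPKM in SWF). For how many of all genes POF and SWF did not overlap was not counted.

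None of the 5 was called in POF against SWF, where 16.4% of all genes were. The differences were 0.97 ± 0.39 for RPL6, 0.80 ± 0.36 for RPL23, 0.77 ± 0.49 for RPS10, 0.61 ± 0.54 for RPS3A and 0.60 ± 0.45 for RPLP1 (SE), with adjusted p-values of limma of 0.127, 0.164, 0.29, 0.435 and 0.362. All 5 were above 0, and RPL6 was the only 1 with an unadjusted p under 0.05 (0.0432). The differences turned on single POF libraries. Without POF replicate 1, RPS3A stood at 0.30 and RPS10 at 0.50, and without POF replicate 2, RPLP1 stood at 0.35, with no gene called. POF replicate 3 is the only library of these stages in the sequencing group, so a term for that group gives the same estimates as leaving it out. With the term 5 of the 5 were called, where 4612 of 15197 genes were. Without the library 4 of the 5 were called, where 4586 of 15197 genes were. RPS10 (1.24, adjusted p 0.0249), RPS3A (1.11, adjusted p 0.0425) and RPL23 (1.07, adjusted p 0.0274) were among the 4.

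POF was also set against the stages before ovulation. Against F1, 0 of the 5 genes were called, where 15.7% of all genes were. With the replicate number as a block limma called 0 genes of the whole table in this comparison, and 4925 had an unadjusted p under 0.05. Against the mean of the preovulatory stages 0 of the 5 were called, where 39.8% of all genes were. RPS10 had 1317, 1175 and 467.6 FPKM in POF, against 971.2, 852.5 and 791.3 FPKM in F1. Replicates 1 and 2 of POF lay above F1 and replicate 3 below it.

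The 5 genes together held 0.881% ± 0.280 of the summed FPKM in preovulatory libraries (SD, n = 15), against 0.521% ± 0.277 in prehierarchical libraries (SD, n = 12). The difference of 0.360 percentage points had a two-sided permutation p of 0.0021, and with stage means as units, 5 stages against 4, an exact p of 0.032. Of the FPKM outside the mitochondrial rows the shares were 1.13% ± 0.390 and 0.729% ± 0.333 (permutation p = 0.0072). Without all libraries numbered 1 the difference was 0.265 percentage points (permutation p = 0.065). The share was 0.987% ± 0.400 in POF, 0.674% ± 0.0828 in F1 and 0.519% ± 0.0368 in SWF (SD, n = 3 each). The exact two-sided permutation p was 0.1 for F1 against SWF, 0.4 for POF against F1 and 0.2 for POF against SWF, and 3 libraries against 3 cannot give less than 0.1.

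The mitochondrial share was lower in the preovulatory class, where the share of the 5 genes was higher. It had a median of 21.3% in preovulatory libraries, from 18.1% to 26.7%, and a median of 27.9% in prehierarchical libraries, from 23.1% to 49.5%. Of the 13 genes that the mitochondrial genome encodes, 0 were called as higher and 4 as lower in preovulatory follicles, where 25.5% of all genes were called as lower, with a median difference of -0.54 against -0.32 for all genes. In F1 against SWF 0 were called as higher and 3 as lower, where 44.5% of all genes were called as lower, and their median of -0.43 lay above that of all genes, -0.68. Against SWF, ND3 (-1.10, adjusted p of limma 0.0149) and ND4L (-0.94, adjusted p 0.0321), both subunits of respiratory complex I, were lowest in F1. LYF replicate 1 had both the highest mitochondrial share and the lowest share of the 5 genes, 0.236% of the summed FPKM. With the libraries scaled to the sum without these rows, 3 of the 5 genes were called between the classes, as given above. Any further part of the mitochondrial share in the result was not tested.

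The relation had opposite signs in the classes. Over all 30 libraries, the log2 share of the 5 genes in the FPKM outside the mitochondrial rows correlated with the mitochondrial share at r = -0.58 (permutation p = 0.00035, adjusted over 12 relations 0.0031) and rho = -0.556 (p = 0.0018). Within the 12 prehierarchical libraries it was r = -0.666 (permutation p = 0.045, adjusted 0.09) and rho = -0.853 (p = 0.00087), and within the 15 preovulatory libraries r = 0.747 (permutation p = 0.00094, adjusted 0.0038) and rho = 0.586 (p = 0.023). Without the 2 libraries farthest from the median share the values of r were -0.426, -0.691 and 0.482. The pooled relation thus did not hold within the preovulatory class.

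**Figure D4:**
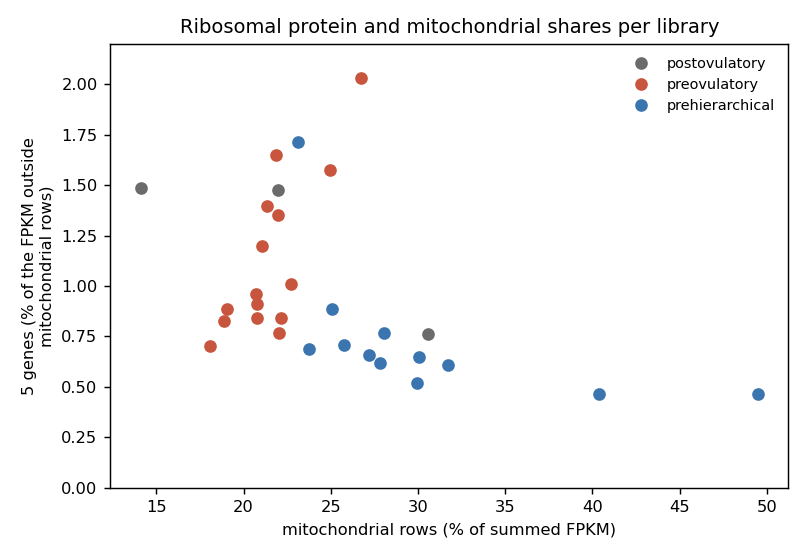
Share of the 5 genes in the FPKM outside the mitochondrial rows (vertical axis, %) against the share of the mitochondrial rows in the summed FPKM (horizontal axis, %), with 1 point for each of the 30 libraries. The preovulatory libraries lie between 18.1% and 26.7% on the horizontal axis and most prehierarchical libraries to the right of them, and the points slope up within the first class (r = 0.747) and down within the second (r = -0.666).

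The relative depth had a median of 1.15 in preovulatory and 1.09 in prehierarchical libraries. Within the prehierarchical class the log2 share of the 5 genes correlated with the relative depth at r = 0.822 (permutation p = 0.0039, adjusted 0.012) and rho = 0.685 (p = 0.017), with r = 0.391 without the 2 farthest libraries. Within that class the relation therefore rested on those libraries. Within the preovulatory class r was 0.0338 (permutation p = 0.91) and rho -0.146 (p = 0.6). Over all 30 libraries r was 0.32 (permutation p = 0.084, adjusted 0.14) and rho 0.382 (p = 0.038). Over the 24 libraries outside the sequencing group r was 0.49 (permutation p = 0.015, adjusted 0.036) and rho 0.493 (p = 0.016). Without the 2 farthest of these, r was 0.449.

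A ratio of 2 genes within a library is the same under any scaling by 1 factor per library, though not under quantile normalization. It asked whether the 5 genes kept their proportions. RPS3A and RPS10, both of the small subunit, did not. The ratio of RPS3A to RPS10 was 0.707, 0.861 and 0.812 in F1, against 1.25, 1.26 and 1.49 in SWF. In F1 every library thus held less RPS3A than RPS10 and in SWF every library more.

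The ratio of RPS3A to RPS10 had a median of 0.931 in preovulatory libraries, from 0.707 to 1.15, and a median of 1.18 in prehierarchical libraries, from 0.917 to 1.49. It was below 1 in 12 of 15 preovulatory and in 2 of 12 prehierarchical libraries. The difference in the log2 ratio was -0.35 (permutation p = 0.0001, adjusted over 10 pairs 0.001). By stage its mean was 1.33 ± 0.133 in SWF, 1.23 ± 0.0962 in LWF, 1.12 ± 0.130 in SYF, and 0.979 ± 0.0555 in LYF (SD, n = 3 each). It was 0.931 ± 0.0411 for F5, 1.01 ± 0.116 for F4, 0.902 ± 0.140 for F3, 0.919 ± 0.112 for F2 and 0.793 ± 0.0790 for F1, and 1.19 ± 0.0574 for POF. The stages before ovulation thus ran downward in mean apart from F4 and F2, and from SYF and LWF if the titles hold. LYF, whose levels spread widely, had a narrow range of this ratio.

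**Figure D5:**
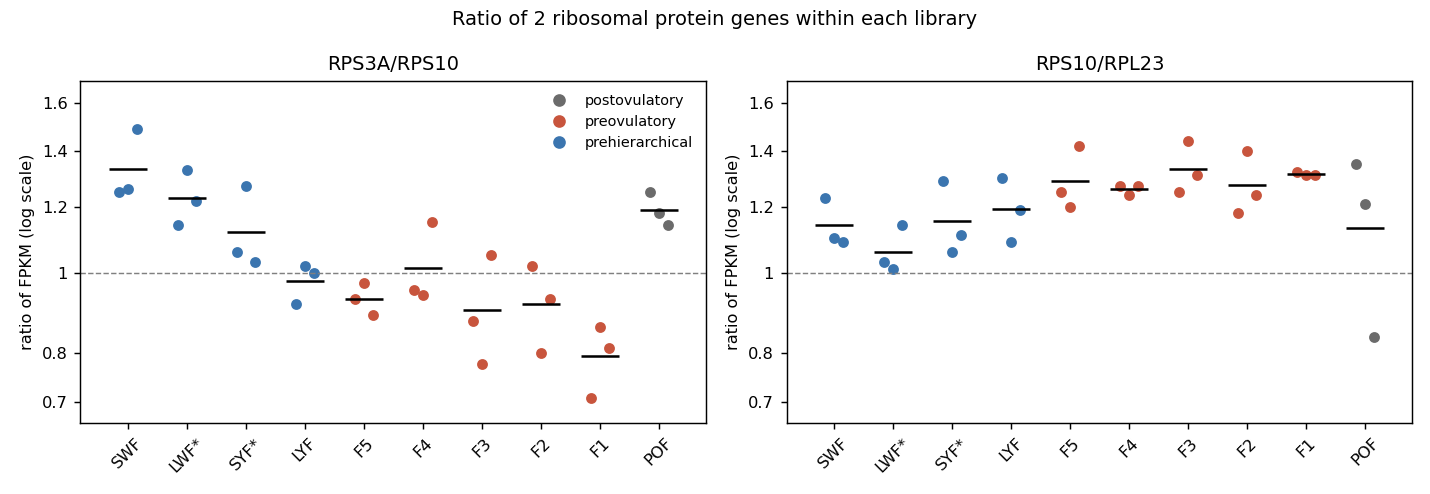
Ratio of FPKM within each library (vertical axes, log scale) at the 10 stages (horizontal axes) for RPS3A over RPS10 (left) and RPS10 over RPL23 (right), with 1 point per library and a black bar at the stage mean. RPS3A over RPS10 had a mean of 1.33 in SWF, 0.793 in F1 and 1.19 in POF.

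Of the 10 ratios, 4 differed between the classes at an adjusted p under 0.05. The ratios share their genes and are not independent, and ratios of other genes were not computed. RPS10 rose against RPL23, by 0.19 on the log2 scale (permutation p = 0.0002, adjusted 0.001), with a median ratio of 1.27 in preovulatory and 1.10 in prehierarchical libraries. RPS10 also rose against RPLP1, by 0.28 (permutation p = 0.0032, adjusted 0.0107), with medians of 1.04 and 0.852 in these classes. RPS3A fell against RPL23, by 0.16 (permutation p = 0.016, adjusted 0.04), with medians of 1.16 and 1.34. RPS3A against RPLP1 differed by -0.07 (adjusted p of the permutation test 0.55), and the 4 ratios with RPL6 had adjusted p-values from 0.068 to 0.55.

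The number of ratios that passed was 3 without all libraries numbered 1, 0 without those numbered 2, 5 without those numbered 3 and 4 without LYF replicate 1. With stage means as units, 5 stages against 4, the exact permutation p was 0.032 for RPS3A over RPS10. It was 0.016 for RPS10 over RPL23 and RPS10 over RPLP1, the smallest that 5 stages against 4 allow. After adjustment 0 of 10 passed (0.107, 0.08 and 0.08). A few ratios at the smallest p cannot pass over 10 pairs, so this count decides little. Without all libraries numbered 2 the adjusted p was 0.05 for RPS3A over RPS10 and for RPS10 over RPL23. Without the 6 libraries of the sequencing group, 3 of 10 passed, and RPS10 over RPLP1 did not (adjusted p of the permutation test 0.102).

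In F1 against SWF the libraries did not overlap in 5 of the 10 ratios, which were the 4 of RPS3A and that of RPS10 over RPL23. The 4 share RPS3A and are not 4 separate results. The level of RPS3A differed by -0.02 as deposited, by 0.49 with upper quartile scaling and by -0.55 with quantile normalization. Ratios of other genes were not computed, so no share over all genes stands beside this count. Between these stages 52.9% of all genes were called in level. The ratio of RPS3A in F1 was 0.595 times that in SWF against RPS10, 0.655 times against RPLP1, 0.688 times against RPL23 and 0.697 times against RPL6. Each had an exact two-sided p of 0.1, the smallest that 3 libraries against 3 allow. RPS10 over RPL23 was 1.32, 1.31 and 1.31 in F1, against 1.23, 1.10 and 1.09 in SWF, with the smallest SD of the 10 ratios in F1.

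After ovulation the ratio of RPS3A to RPS10 was 1.25, 1.18 and 1.14 in POF, against 0.707, 0.861 and 0.812 in F1. The stages did not overlap (exact permutation p = 0.1). POF overlapped with SWF through replicate 1 alone, and its replicates 2 and 3 lay below every SWF library (exact permutation p = 0.2). POF replicate 3, the lowest of POF in level for each of the 5 genes, did not stand apart in this ratio. In other ratios it did, such as RPS10 over RPL23 (1.35, 1.21 and 0.838 in POF) and RPS3A over RPL6 (1.64, 1.4 and 0.786). Against all 15 preovulatory libraries the log2 ratio of RPS3A to RPS10 was higher in POF by 0.40 (exact permutation p = 0.0049, adjusted over 10 pairs 0.049), with an overlap in range. The test took the libraries of all preovulatory stages as exchangeable, which is a limit, and it was not run with stage means as units. The other 9 ratios had adjusted p-values from 0.25 to 0.88 in that comparison. POF and F1 did not overlap in 3 of the 10, which were RPS3A over RPS10, RPS3A over RPLP1 and RPL23 over RPL6. For this count too, no share over ratios of other genes was computed.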

How the data were processed

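Total RNA of granulosa cell layers was depleted of rRNA and sequenced as strand-specific paired-end libraries. After quality filtering and removal of rRNA reads, the authors aligned them to GRCg6a using HISAT2 2.1.0. StringTie 1.3.3 gave the FPKM that were deposited for each gene in each library, with no scaling added here. Read counts were not used here, and the authors' DESeq2 test, which needs them, was not run. The lowest common step of the FPKM in a library, taken as the worth of 1 fragment, gave its relative depth.

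The filter kept a gene whose FPKM exceeded 0.5 in 2 or more libraries of the same stage. Stages were compared on log2(FPKM + 1), with a pseudocount of 1, by limma 3.58.1 in R 4.3.3 (trend, Benjamini-Hochberg over the kept genes). Pairs of stages were fitted on their 6 libraries, and other comparisons on all 30, or on 15 for the hierarchy. Calls required both an adjusted p under 0.05 and more than a 1.5-fold difference of FPKM + 1, while the test over all stages and the slope used no fold. Shares and ratios were compared with two-sided permutation tests (100000 resamples, or exact) in SciPy 1.17.1. The limma fits were tested on simulated data.

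The 5 members and the lists were chosen with earlier results of these data known. The members, EEF1A, EIF4A2 and the 3 genes most like each member were to be named, with at most 2 identifiers without a symbol, and the 2 genes of a list with the largest called change in F1 against SWF. The symbols come from the study's supplementary table, and the 5 match 1 RefSeq gene each on the same chromosome. Symbols were paired with an identifier for 0 of 49 other large and 0 of 34 other small subunit proteins, 0 of 36 ribosome biogenesis genes, 0 of 73 mitochondrial ribosomal proteins, 2 of 43 translation factors, 13 of 13 mitochondrially encoded genes and 1 of 55 cell type markers, so only the mitochondrially encoded list was described. Deviations of same-numbered libraries from their stage means were correlated over 557 genes. They correlated above 0.1 for all 3 numbers in 2 of 6 pairs of stages, POF with F1 and F5 with LYF. These may be paired by number, judged from the data alone. The main fits had no pairing term in any comparison, these 2 included, and the replicate block was an alternative. In the other 4 pairs the 3 correlations did not all exceed 0.1, and r ran from -0.326 to 0.66 in all. Alternatives were other scalings, pseudocount, filter, trend, a replicate block, a term for the sequencing group and leaving out libraries. Those without each of the 27 libraries, without LYF, without F3, without the sequencing group in the comparison of the classes, without LYF replicate 1 for the ratios, and with stage means as units were chosen after seeing the data.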

Additional observations from a re-analysis of the deposited data

How the results depend on the processing

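Counts of the 5 genes called changed with the scaling, the sequencing group term and the libraries left out. With upper quartile scaling the count was 4 in F1 against SWF and 5 over all stages, where 6507 and 10748 of 15197 genes were called. With quantile normalization it was 0 in F1 against SWF, 0 between preovulatory and prehierarchical follicles and 0 over all stages. Of all genes 5960, 3946 and 9825 were then called. Without the mitochondrial rows it was 0, 3 and 1, where 8709, 6023 and 12124 of all genes were called. With a term for the sequencing group it was 3 in F1 against SWF and 5 in POF against SWF, where 6255 and 4612 of all genes were called. With all 30 libraries it was 0 in F1 against SWF, where 7700 of all genes were called. Without the filter it was 1 over all stages, and without LWF and SYF 3 between the classes. Leaving out libraries gave 0 to 2 in F1 against SWF, 0 to 4 in POF against SWF, 2 to 5 between the classes and 0 to 5 over all stages, against 1, 0, 5 and 3 with all. The summed share differed by 0.265 to 0.438 percentage points without each replicate number, and 0 to 5 ratios passed without a library or a replicate number, and 0 with stage means as units. The cause was not tested.

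In F1 against SWF, RPS3A took the other sign with upper quartile scaling (0.49) and stood at -0.55 with quantile normalization. Without each library it ranged from -0.144 to 0.0425. Between preovulatory and prehierarchical follicles, the difference in the log2 ratio of RPS10 to RPL6 was 0.092 as deposited. It ranged from -0.0351 to 0.321 under the alternatives. For RPL23 to RPL6 this difference was -0.099 and ranged from -0.19 to 0.0615. Neither ratio was called. POF against SWF, without a call as deposited, gained calls as given above. In the other 6 comparisons without a call, 0 of 405 values of single genes were called under an alternative.

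With the replicate block the count of the 5 genes called was 4 over all stages, with RPL6 added (adjusted p of limma 0.0461), 5 between the classes and 1 in F1 against SWF, and it was 0 in the other comparisons, as without the block. The count of all genes called was then 0 in POF against F1 (2388 without the block), 1033 in POF against SWF (2490) and 1873 in F1 against F5 (3773). Other settings gave 1442 (quantile normalization), 1480 (no filter), 1202 (sequencing group) and 6777 (all 30 libraries) in POF against F1, 4612 (sequencing group) and 6640 (all 30 libraries) in POF against SWF and 1604 (sequencing group) in F1 against F5. Without a library they ranged from 0 to 4716 in POF against F1, from 243 to 4586 in POF against SWF, from 1610 in LYF against SWF (4211 with all) and from 1778 in F1 against F5. Without the libraries numbered 2 they were 6390 over all stages (11483) and 3537 for the slope (6103). A term for the sequencing group could not be fitted for LYF against SWF and F5 against LYF, which hold none of its libraries. The lack of read counts leaves the counting error of single values unknown.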
